A study of Mus musculus with 4 samples.

Results

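The copies described here are the mouse LINE1 copies whose repeat name begins with L1Md_F or L1Md_G, which gave 4 names, L1Md_F, L1Md_F2, L1Md_F3 and L1Md_Gf. They made up 86140 of the 3658072 transposable element (TE) copies in the count table, with 64898 copies of L1Md_F2, 16146 of L1Md_F3, 4016 of L1Md_F and 1080 of L1Md_Gf. The rule reads the repeat name and no count of a copy. Of these copies, 8298 (9.63%) had at least 1 count over the 4 libraries, compared with 14.6% of all TE copies, and 1841 had at least 5 counts, the minimum for values of single copies. At the edge of that minimum, 276 copies had 5 counts and 415 copies had 4. No positions or sequences of these copies were in the files used, so the copies are given by the running number that the count table attaches to the name.

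LINE1 elements are retrotransposons that copy themselves through an RNA intermediate, and a full-length element carries an internal promoter and a pair of reading frames, one for an RNA-binding protein and one for an endonuclease and reverse transcriptase. In the mouse the promoter is built of tandem repeated units called monomers, whose type distinguishes the A family from the F family. The F family is the older one, while Gf and Tf are young families with F-related monomers that include elements able to move, so the 4 names join old copies that are mostly cut short or mutated with a young family. In embryonic stem cells (ESCs), LINE1 copies are held down by DNA methylation, by histone methylation and by proteins that act on their RNA.

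Poly(A) RNA-seq libraries of third-generation (G3) Terc-/- ESCs were compared with those of wild-type (WT) ESCs to ask how transposable elements respond to telomere shortening without telomerase. Terc encodes the RNA template of telomerase, and telomeres of Terc-/- mice shorten with each generation of intercrosses. The WT line (N12) and the G3 Terc-/- line (F35) were both on the C57BL/6 strain, grown on feeder cells with serum and leukemia inhibitory factor. Each gave 2 libraries, described by the study as biological replicates. The sample titles carry G3 for both lines, and G3 is written here for the Terc-/- line only. Each genotype was 1 line, so effects of genotype and of line cannot be told apart, and the p-values measure the spread between libraries of a line.

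TE counts per library lay between 1805047 and 2104586 and gene counts between 18047995 and 22520017. Terc had 7 and 2 counts in the WT libraries against 0 in both G3 Terc-/- libraries, a difference too small in counts to check the labels firmly. The 18 pluripotency markers were all tested, with 13 higher and 4 lower by adjusted p-value under 0.05, where 21.7% of all genes were higher and 21.8% lower, and their summed level was 8048 and 8191 CPM (counts scaled to equal library size, here that of the gene counts) in WT ESCs compared with 9935 and 10371 in G3 Terc-/- ESCs. The summed level of 22 feeder fibroblast markers was 511 and 337 CPM in WT and 546 and 380 CPM in G3 Terc-/- libraries. The genotypes overlapped, but replicate 1 lay above replicate 2 in both, and the G3 Terc-/- library was the higher at each replicate number. Primitive endoderm markers summed to 820 and 762 CPM in WT and to 787 and 709 CPM in G3 Terc-/- libraries, and trophoblast markers to 367 and 360 CPM and to 216 in each, with Tpbpa at 0 in all libraries.

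All 4 names had higher levels in the G3 Terc-/- than in the WT line, with no overlap between the libraries, and L1Md_Gf changed by far more than the 3 F names. Together the 4 names held 0.789% and 0.780% of the TE counts in the WT libraries against 1.11% in each G3 Terc-/- library. The share was 0.784% ± 0.0065 (SD, n = 2) in the WT line and 1.11% ± 0.0010 (SD, n = 2) in the G3 Terc-/- line, a difference of 0.328 percentage points that exceeded the spread between replicates. In bulk RNA, more cells that transcribe a copy and more RNA per cell cannot be told apart.

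L1Md_Gf, the young family, had 447 and 519 counts in the WT libraries compared with 1159 and 999 in the G3 Terc-/- libraries. Scaled to the TE counts, this was 236 ± 20.9 CPM (SD, n = 2) in WT and 548 ± 2.03 CPM (SD, n = 2) in G3 Terc-/- libraries. Its log2 fold change was 1.21 (SE 0.07, Benjamini-Hochberg adjusted p = 1.09e-06 by the quasi-likelihood test of edgeR). This placed L1Md_Gf at rank 12 of the 917 repeat names tested, ordered from the highest log2 fold change. Only L1Md_Gf of the 4 names passed the study's cutoffs for TE classes. These were P under 0.05 with a change of 1.5-fold (0.585 on the log2 scale). Of all names, 5.13% were called higher and 2.94% lower. The study applied these cutoffs with DESeq2 to reads aligned to TE consensus sequences, unlike the counts of copies summed by name here.

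L1Md_F2, the name with the most copies, had 10816 and 10964 counts in WT against 15268 and 13519 counts in G3 Terc-/- libraries. Its level rose from 5326 ± 38.7 CPM (SD, n = 2) to 7312 ± 112 CPM (SD, n = 2), with a log2 fold change of 0.46 (SE 0.03, adjusted p = 5.71e-07 from the same edgeR test). L1Md_F3 had 3008 and 2942 counts in WT compared with 4127 and 3514 in G3 Terc-/- libraries. Its level rose from 1455 ± 47.4 CPM to 1938 ± 24.0 CPM (SD, n = 2 each), with a log2 fold change of 0.41 (SE 0.04, adjusted p = 2.97e-05 from edgeR). These 2 names stood at ranks 90 and 102 of 917, and for both the G3 Terc-/- libraries lay well above the WT libraries.

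L1Md_F showed the smallest change of the 4. It had 1975 and 1988 counts in WT against 2411 and 2063 counts in G3 Terc-/- libraries, or 969 ± 11.9 CPM and 1135 ± 10.1 CPM (SD, n = 2 each). The log2 fold change was 0.23 (SE 0.04, adjusted p = 0.00309 from edgeR) and the rank 198 of 917. By adjusted p-value alone, at any size of change, all 4 names were higher, as were 13.2% of all names.

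**Figure D1:**
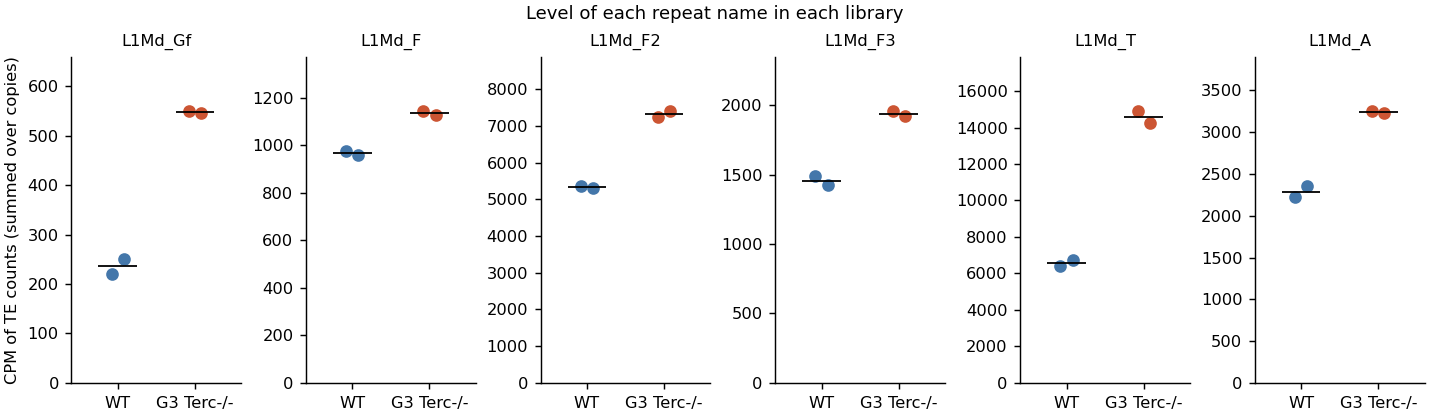
Level of each repeat name in each library, in CPM of TE counts summed over all copies of the name, for the 4 names and for the young families L1Md_T and L1Md_A. Points are libraries (2 per genotype) and horizontal lines are means, and each panel has its own axis from 0. In all 6 panels both G3 Terc-/- libraries lie above both WT libraries, by 548 against 236 CPM on average for L1Md_Gf and by 1135 against 969 CPM for L1Md_F.

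The other mouse-specific and rodent LINE1 names gave a frame for these changes. Among 29 tested names beginning with L1_Mus, L1_Rod, L1VL or Lx, 0 were higher and 1 was lower at the study's cutoffs by edgeR, and 9 were higher and 1 lower by adjusted p-value. Their log2 fold changes ran from -0.59 (Lx2B, the name called lower) to 0.48 (L1VL4), with a median of 0.10, while the median over all 917 names was -0.00461. L1Md_F2 and L1Md_F3 lay below the top of that range, L1Md_F lay within it nearer to its median, and L1Md_Gf lay above it. The young families L1Md_T and L1Md_A had log2 fold changes of 1.15 and 0.50, at ranks 14 and 78.

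Differences between names were tested within each library, with the count of a reference name in place of the library size. The spread of the reference enters every such comparison, so these p-values are too small, and 94.1% of all names differed from L1Md_T by adjusted p-value, 72.9% from L1Md_A and 68.1% from L1Md_F2. With 2 libraries against 2, an exact permutation test (two-sided) cannot go below p = 0.33.

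The difference between L1Md_Gf and L1Md_T did not pass the test. The log2 ratio of its count to that of L1Md_T was -4.86 and -4.75 in WT libraries against -4.76 and -4.71 in G3 Terc-/- libraries, which overlapped. The difference in log2 fold change was 0.07 (SE 0.09, adjusted p = 0.467 from edgeR), with an interval of 2 standard errors on each side from -0.11 to 0.25. Against L1Md_A, the log2 ratio of L1Md_Gf went from -3.33 and -3.23 in WT to -2.56 in both G3 Terc-/- libraries, a difference of 0.71 (SE 0.09, adjusted p = 7.86e-14 from edgeR). Against L1Md_F2 the difference was 0.76 (SE 0.08, adjusted p = 1.72e-08 from edgeR). The young Gf family therefore rose more than L1Md_A and L1Md_F2 by this test.

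The 3 F names rose less than L1Md_T. The log2 ratio of L1Md_F to L1Md_T fell from -2.72 and -2.81 in WT to -3.70 and -3.66 in G3 Terc-/- libraries, a difference of -0.92 (SE 0.08, adjusted p = 1.76e-19 from edgeR). The corresponding differences were -0.69 (SE 0.07) for L1Md_F2 and -0.74 (SE 0.07) for L1Md_F3, with adjusted p-values of 7.34e-15 and 1.55e-15 from edgeR. Set against L1Md_A, neither L1Md_F2 (difference -0.05, interval -0.18 to 0.09) nor L1Md_F3 (difference -0.09, interval -0.23 to 0.05) passed the test when all copies were summed. Both passed when the leading copy was left out of every name (-0.15, adjusted p = 0.0331, and -0.22, adjusted p = 0.00367, from edgeR), and L1Md_F3 also passed without WT replicate 2 (-0.17, adjusted p = 0.0306). L1Md_F2 and L1Md_F3 were also close to each other, with a difference of -0.04 for L1Md_F3 and an interval from -0.13 to 0.04. L1Md_F lay below L1Md_A (difference -0.27, SE 0.07, adjusted p = 0.000484 from edgeR). It also lay below L1Md_F2 (difference -0.23, SE 0.05, adjusted p = 0.000290 from edgeR). Both of these differences moved when the copies with the most counts were left out of every name, the reference included. The leading copy held 29.4% of the L1Md_A counts and 7.77% of the L1Md_F2 counts. When the leading copy was left out of every name, L1Md_F differed from L1Md_A by -0.13 (adjusted p = 0.127) and from L1Md_F2 by 0.02 (adjusted p = 0.725). Without the 10 such copies, an alternative chosen after seeing the data, these became 0.53 (adjusted p = 4.01e-06) and 0.74 (adjusted p = 7.79e-15), and the difference from L1Md_T was then -0.0053 (adjusted p = 0.965 from edgeR).

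The names differed in how their counts were spread over copies. A single copy of L1Md_F, number 871, held 36.6% of all L1Md_F counts, and 10 copies held 81.7%, so that 2 copies were enough for 50% of the counts. For L1Md_F2 the copy with the most counts (number 47024) held 7.77% and 10 copies held 24.2%, and for L1Md_F3 these were 12.6% (number 5886) and 38.2%. L1Md_Gf had the smallest share in its leading copies of the 4 names, with 3.97% in its leading copy (number 869) and 21.6% in 10 copies. The number of copies that held 50% of the counts was 78 for L1Md_F2, 24 for L1Md_F3 and 42 for L1Md_Gf.

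**Figure D2:**
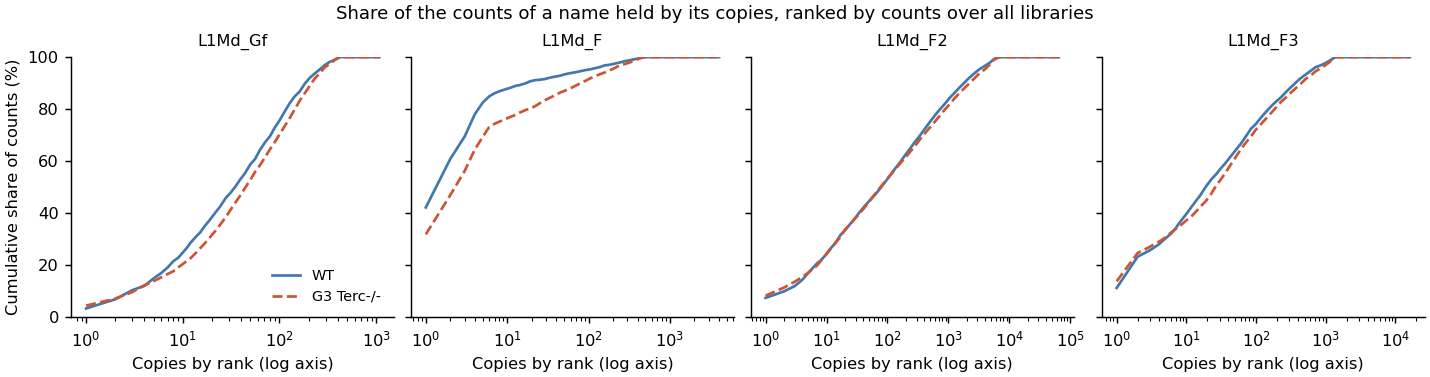
Cumulative share of the counts of a name (in %) held by its copies, ranked on a log axis by counts over all 4 libraries, for WT (solid line) and G3 Terc-/- libraries (dashed line) summed by genotype. For L1Md_F the line starts above 30% at the first copy and the G3 Terc-/- line runs below the WT line, while the lines of L1Md_F2 nearly coincide.

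In L1Md_F, the leading copies and the remainder showed unlike changes. The 10 copies with the most counts had 1715 and 1768 counts in WT compared with 1828 and 1586 in G3 Terc-/- libraries. Scaled to depth, this was 849 and 854 CPM in WT against 866 and 867 CPM in G3 Terc-/- libraries, a narrow gap without overlap. All other L1Md_F copies together had 260 and 220 counts in WT against 583 and 477 in G3 Terc-/- libraries, or 129 and 106 CPM against 276 and 261 CPM. Without the 10 copies, the log2 fold change of L1Md_F was 1.18 (SE 0.09), past the cutoff and near the 1.28 of L1Md_Gf summed in the same way, whereas L1Md_F2 stayed at 0.44 and L1Md_F3 at 0.45. The share of L1Md_F counts in copy 871 was 42.3% and 41.9% in WT against 31.6% and 31.9% in G3 Terc-/- libraries. That copy had 836 and 833 counts in WT compared with 762 and 659 in G3 Terc-/- libraries (log2 fold change -0.13, adjusted p = 0.723 from edgeR over all copies). The next copy, number 869, had 358 and 383 counts in WT against 351 and 326 in G3 Terc-/- libraries (log2 fold change -0.03).

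**Figure D3:**
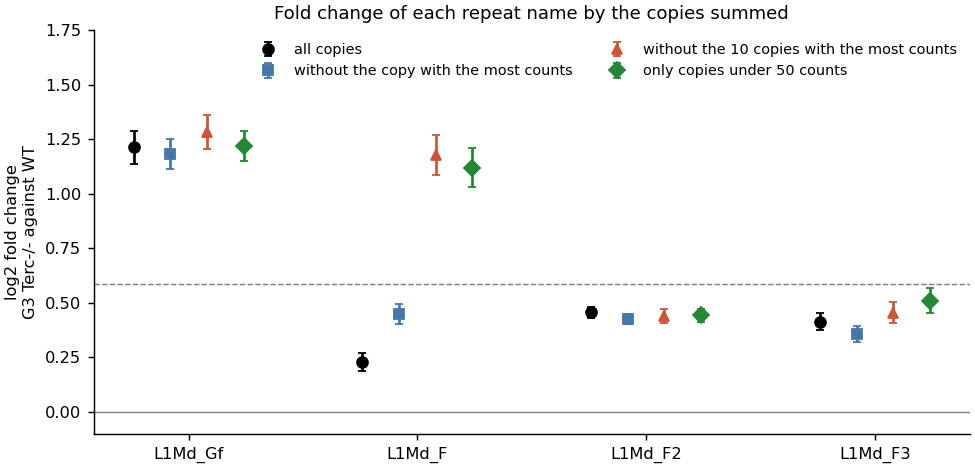
log2 fold change of each repeat name (G3 Terc-/- against WT, with standard error bars) when all copies were summed, without the copy with the most counts, without the 10 copies with the most counts, and with only copies under 50 counts over the 4 libraries. The dashed line is the cutoff of 0.585, and L1Md_F passes from 0.23 with all copies to 1.18 without 10 copies while the other names keep their side of the line.

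Copies were then grouped by their total count over all 4 libraries, a total that does not favour either genotype. In L1Md_F, the 8 copies with 50 counts or more had 1694 and 1747 counts in WT compared with 1801 and 1561 in G3 Terc-/- libraries, a ratio of summed CPM of 1.01. The ratio was 1.55 over 13 copies with 20 to 49 counts, 3.56 over 23 copies with 10 to 19 counts, 2.49 over 48 copies with 5 to 9 counts and 2.14 over 369 copies with 1 to 4 counts. In L1Md_Gf the ratio was above 2 in every group, from 3.11 over 237 copies with 1 to 4 counts to 2.01 over 31 copies with 20 to 49 counts, and it was 2.09 over the 6 copies with 50 counts or more. L1Md_F2 ranged between 1.22 and 1.58 and L1Md_F3 between 1.26 and 1.55 over the same 5 groups, each with its highest ratio among the copies with 1 to 4 counts. L1Md_A also had its highest ratio, 1.95, among copies with 1 to 4 counts and its lowest, 1.18, among those with 50 counts or more. L1Md_T lay between 2.43 and 2.55 in the groups under 50 counts and at 1.74 among copies with 50 counts or more. Over all TE copies the ratio lay between 0.951 and 1.04.

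**Figure D4:**
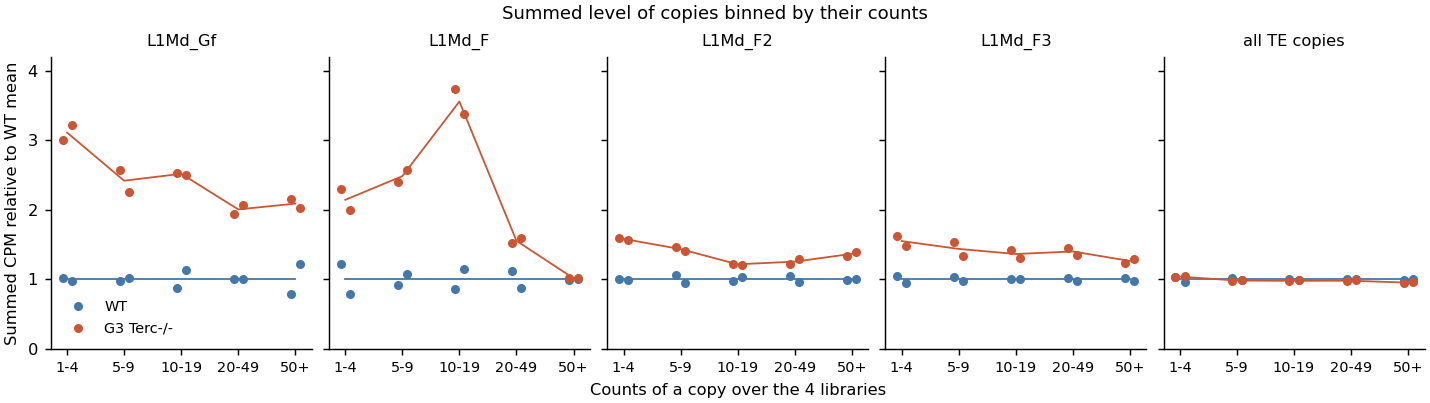
Summed CPM of copies relative to the WT mean, by the counts of a copy over the 4 libraries, for the 4 names and for all TE copies. Points are libraries and lines join genotype means. L1Md_F reaches 3.56 among copies with 10 to 19 counts and 1.01 among copies with 50 counts or more, the mean of L1Md_Gf stays above 2, and all TE copies stay near 1.

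More copies were detected in G3 Terc-/- libraries. With all libraries brought by calculation to the TE depth of the shallowest, an expected 158 and 164 copies of L1Md_Gf had a count in the WT libraries and 278 in each G3 Terc-/- library. For L1Md_F the numbers were 140 and 122 against 246 and 216, for L1Md_F2 2056 and 2041 against 2870 and 2801, and for L1Md_F3 504 and 471 against 684 and 649. L1Md_T also rose, with 3889 and 3941 against 6384 and 6265, as did L1Md_A, with 1110 and 1132 against 1850 and 1813. Over all TE copies the numbers were 264028 and 256447 against 270131 and 267569, so the genotypes stood far closer there. At the deposited depth, 437 copies of the 4 names had counts in both G3 Terc-/- libraries and in neither WT library, and 169 had the reverse. By name, these were 41 and 1 for L1Md_F, 46 and 5 for L1Md_Gf, 62 and 26 for L1Md_F3 and 288 and 137 for L1Md_F2. For L1Md_T they were 1004 and 92, and for L1Md_A 295 and 77. Of all TE copies with a count, 3.72% were found in both G3 Terc-/- libraries only and 3.79% in both WT libraries only.

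Among the 1841 copies with at least 5 counts, 241 (13.1%) were higher and 40 (2.17%) were lower in the knockout line when P was under 0.05 and the change at least 2-fold, the cutoffs the study used for single copies. Over all 176114 TE copies tested, 4.7% were higher and 3.87% were lower. L1Md_F had 21 higher and 2 lower of 92 copies, L1Md_Gf 35 higher and 0 lower of 170, L1Md_F3 44 and 4 of 331, and L1Md_F2 141 and 34 of 1248. At an unadjusted p-value under 0.05 of any size, 37 copies of L1Md_Gf were higher and again 0 were lower by edgeR, where 5.61% and 4.65% of all TE copies were, and DESeq2 also called 0 lower. The share of copies called higher was 22.8% in L1Md_F, 20.6% in L1Md_Gf, 13.3% in L1Md_F3 and 11.3% in L1Md_F2, beside 27.4% in L1Md_T and 13.2% in L1Md_A. This order rested on the tool, since DESeq2 called 5 of L1Md_F (5.43%), 9 of L1Md_Gf (5.29%), 21 of L1Md_F3 (6.34%) and 69 of L1Md_F2 (5.53%) higher, where it called 1.6% of all TE copies. By adjusted p-value of any size, 57 copies were higher and 5 lower, where 0.797% and 0.484% of all TE copies were. These numbers depended on single libraries: 92 copies were higher without G3 Terc-/- replicate 1 and 106 without G3 Terc-/- replicate 2, and 19 were lower without G3 Terc-/- replicate 2. By name, they also varied with a library left out, from 4 to 15 for L1Md_F, 62 to 103 for L1Md_F2, 14 to 33 for L1Md_F3 and 10 to 27 for L1Md_Gf.

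Libraries of the genotypes did not overlap, with G3 Terc-/- higher, in 638 of the 1841 copies (34.7%), and with WT higher in 238 (12.9%). Over all TE copies these shares were 18.9% and 21.8%. Of the 4 names, the split was widest in L1Md_Gf, with 98 copies higher (57.6%) and 4 lower (2.35%). It was narrower in L1Md_F (42 and 8), L1Md_F3 (108 and 41) and L1Md_F2 (390 and 185). The shares were 60.2% and 2.97% in L1Md_T, much as in L1Md_Gf, and 35.3% and 13.0% in L1Md_A. Among copies with 20 counts or more, the median log2 fold change was 1.08 over 37 copies of L1Md_Gf, 0.45 over 21 of L1Md_F, 0.39 over 96 of L1Md_F3 and 0.36 over 347 of L1Md_F2. It was 1.32 over 900 copies of L1Md_T and 0.37 over 104 of L1Md_A. Over all TE copies of that depth it was -0.0045, and 6.53% of those copies were called higher and 5.2% lower. In that set 35 of the 37 L1Md_Gf copies, 17 of 21 L1Md_F copies, 66 of 96 L1Md_F3 copies and 237 of 347 L1Md_F2 copies had a positive value. So did 837 of 900 L1Md_T copies, 69 of 104 L1Md_A copies and 26911 of all 54163 TE copies. Of the copies of the 4 names in that set, 3 of L1Md_F2 and 1 of L1Md_F3 had no count in one genotype. Their fitted values are no measure of size, but a floor of 3 counts leaves each on its side of the median.

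**Figure D5:**
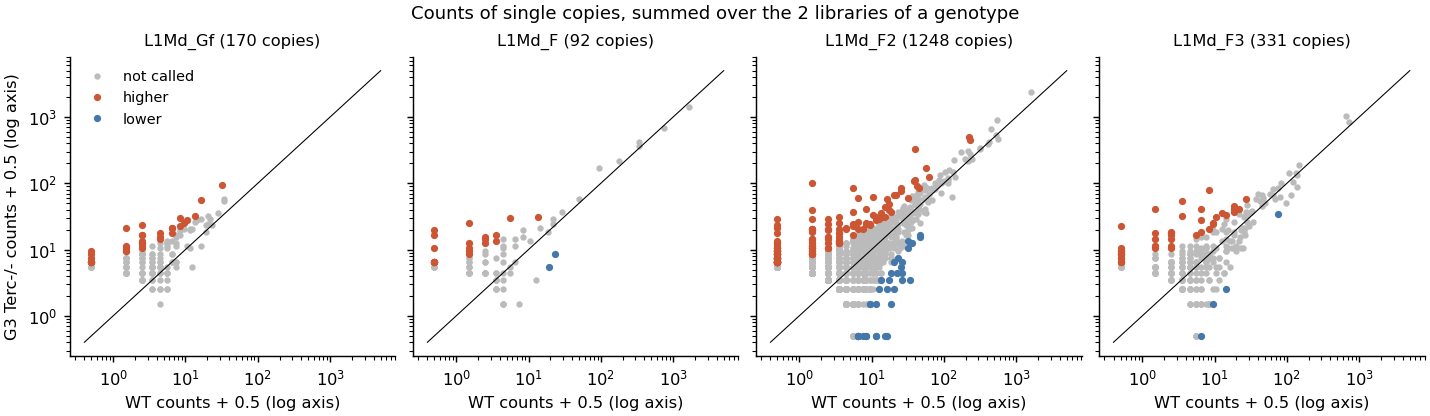
Counts of single copies with at least 5 counts, summed over the 2 libraries of a genotype with 0.5 added, on log axes, for WT (horizontal) and G3 Terc-/- libraries (vertical). Copies called higher or lower at 2-fold and P under 0.05 are coloured and the line marks equal counts. Calls of higher copies lie mostly among copies with few WT counts. This follows in part from the filter, since a copy can reach 5 counts through G3 Terc-/- libraries alone. L1Md_Gf has 35 copies called higher and 0 called lower.

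The copies with the smallest p-values belonged to L1Md_F2 and L1Md_F3, which held 1248 and 331 of the 1841 tested copies. A small p-value also depends on depth, and no L1Md_Gf copy had over 124 counts. Copy 19840 of L1Md_F2 had 18 and 22 counts in WT against 171 and 160 in G3 Terc-/- libraries (log2 fold change 3.15, adjusted p = 2.68e-18 from edgeR). The copy with the following number, 19841, had 2 and 3 counts in WT compared with 50 and 33 in G3 Terc-/- libraries (log2 fold change 4.08, adjusted p = 1.4e-08 from edgeR). Copy 47035 of L1Md_F2 was almost silent in WT, with 0 and 1 counts, and had 51 and 50 counts in G3 Terc-/- libraries. Its ratio of summed, depth-scaled counts was 105, with a 95% counting interval from 18.4 to 4181. In all 3 copies each G3 Terc-/- library exceeded both WT libraries many times over.

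Copies 25304 and 25305 of L1Md_F2 carried more counts and changed less. Copy 25304 had 119 and 106 counts in WT against 278 and 220 in G3 Terc-/- libraries (log2 fold change 1.25), and copy 25305 had 123 and 106 counts against 206 and 243 (log2 fold change 1.08). Copy 60247 had 25 and 31 counts in WT compared with 92 and 80 in G3 Terc-/- libraries (log2 fold change 1.72), and copy 16930 had 3 and 3 against 35 and 24 (log2 fold change 3.34). All 4 had adjusted p-values between 2.35e-09 and 1.32e-05 from edgeR.

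Among L1Md_F3 copies, number 5642 had 5 and 3 counts in WT against 33 and 47 in G3 Terc-/- libraries (log2 fold change 3.39, adjusted p = 3.4e-07 from edgeR). Copy 5636 had 1 and 2 counts in WT compared with 28 and 26 in G3 Terc-/- libraries, a ratio of 18.7 with a counting interval from 6.06 to 93.4. Copy 5430 had 1 and 0 counts in WT against 19 and 21 in G3 Terc-/- libraries, a ratio of 41.5 with an interval from 7.04 to 1680. Like copy 47035, these were at or near 0 in WT, where the interval, which covers counting error only, is wide. Copies 47035, 5636 and 5430 reached the minimum of 5 counts only through G3 Terc-/- libraries, the genotype where they were high.

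The 5 copies with the smallest p-values in the lower direction were all L1Md_F2, and all had few counts. They reached the minimum of 5 counts only through the WT libraries. Copy 21667 had 13 and 20 counts in WT compared with 2 and 1 in G3 Terc-/- libraries (log2 fold change -3.26, adjusted p = 0.00592 from edgeR). Copy 29194 had 7 and 9 counts in WT and copy 56845 had 10 and 5, and both had 0 in the G3 Terc-/- libraries, which allows up to 3 counts. Copy 44525 had 14 and 12 counts against 1 and 2, and copy 37160 had 8 and 10 against 1 and 0, the latter with an adjusted p of 0.0650 from edgeR.

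The leading copy of each name differed from these. Copy 47024 of L1Md_F2 had 797 and 790 counts in WT against 1215 and 1129 in G3 Terc-/- libraries, with a log2 fold change of 0.67 (adjusted p = 2.75e-07 from edgeR), below the 2-fold cutoff. Copy 3552 of L1Md_F2 had 270 and 274 counts in WT compared with 414 and 480 in G3 Terc-/- libraries (log2 fold change 0.83, adjusted p = 1.14e-06 from edgeR). Copy 5886 of L1Md_F3 had 344 and 318 counts in WT against 570 and 475 in G3 Terc-/- libraries (log2 fold change 0.76, adjusted p = 1.21e-06 from edgeR). These F2 and F3 copies thus rose by adjusted p-value, while copy 871 of L1Md_F did not. Copy 869 of L1Md_Gf had only 14 and 17 counts in WT compared with 52 and 41 in G3 Terc-/- libraries, and its log2 fold change was 1.68 (adjusted p = 0.000532 from edgeR).

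Of the 10 copies with the most counts of each name, 3 of L1Md_Gf and 2 of L1Md_F2 were called higher at the 2-fold cutoff and none was called lower by edgeR, beside 6.53% and 5.2% of all TE copies with 20 counts or more. For L1Md_F and L1Md_F3 0 of 10 were called. At an unadjusted p-value under 0.05 of any size, 3 copies of L1Md_F were higher and 0 lower, and 4 copies of L1Md_F3 were higher and 2 lower. Over all tested TE copies these shares were 5.61% and 4.65%, a base of unlike depth. Only 54163 of those 176114 copies had 20 counts or more. The log2 fold changes of these 10 copies ran from 0.11 to 1.89 in L1Md_Gf, from -0.17 to 1.25 in L1Md_F2, from -0.63 to 0.76 in L1Md_F3 and from -0.13 to 0.93 in L1Md_F. Counts of single copies were repeatable within a genotype in the F names, with a correlation across copies of log2(count + 1) between replicates of 0.844 to 0.942. It was 0.480 in WT and 0.589 in G3 Terc-/- libraries for the 37 L1Md_Gf copies with 20 counts or more, none of which had over 124 counts. Genes and copies are not independent replicates, and these values describe the libraries only.

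Genes known to act on LINE1 were counted beside these changes, in lists written from general knowledge. Of 49 genes that silence LINE1 transcription, all tested, 5 were higher and 19 lower by adjusted p-value (edgeR), where 21.7% and 21.8% of all 14896 genes tested were higher and lower. Their median log2 fold change was -0.07, beside 0.0062 over all genes. At a fold change of 2, 0 were higher and 2 were lower, Dnmt3b and Cbx3, beside 4.73% and 3.13% of all genes.

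Dnmt3b, a de novo DNA methyltransferase, had 11230 and 11596 counts in WT against 5129 and 4405 in G3 Terc-/- libraries (log2 fold change -1.13, adjusted p = 1.59e-22 from edgeR). Cbx3, a heterochromatin protein that reads histone methylation, fell by 1.24 on the log2 scale, and Ezh2, the histone methyltransferase of Polycomb complex PRC2, fell by 0.96. Atrx, a chromatin remodeler of heterochromatin, fell by 0.72 and Smchd1, a chromosomal silencing protein, fell by 0.71. In the other direction, Trim28, the corepressor that KRAB zinc finger proteins recruit, had 35630 and 36215 counts in WT compared with 49520 and 38403 in G3 Terc-/- libraries, with a log2 fold change of 0.41. Dnmt3l, a cofactor of de novo methylation, was higher by 0.31, Zfp42 by 0.27, the telomere and replication timing factor Rif1 by 0.24 and the histone deacetylase Hdac1 by 0.19. All these genes passed the adjusted p-value of 0.05 from edgeR, and Cbx3 and Ezh2 lie on chromosome 6. The study reports that part of this chromosome was lost in Terc-/- ESCs of this generation. Whether Cbx3 and Ezh2 lie in the lost part, and whether their DNA copy number changed, was not tested.

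Of 37 genes listed as acting on LINE1 after transcription (the restriction list), 33 were tested. By adjusted p-value 6 were higher and 8 lower, close to the 21.7% and 21.8% of all genes, with a median log2 fold change of 0.01. Zc3hav1, the zinc finger antiviral protein that binds LINE1 RNA, rose from 648 and 664 counts in WT to 1799 and 1458 in G3 Terc-/- libraries (log2 fold change 1.43, adjusted p = 7.26e-21 from edgeR), and it lies on chromosome 6. Piwil2, a piRNA-binding protein, rose by 0.47 on the log2 scale, the nuclease subunit Ercc4 by 0.34, the microprocessor subunit Dgcr8 by 0.18 and the RNA helicase Mov10 by 0.15. Bst2, a membrane restriction factor, fell by 0.84, Tex19.1, which lowers the level of the LINE1 RNA-binding protein, by 0.59, the RNA decay helicase Upf1 by 0.45, Brca1 by 0.24 and the microprocessor nuclease Drosha by 0.22. At a fold change of 2 there was 1 gene in each direction, Zc3hav1 and Piwil4, a piRNA-binding protein, with 51 and 55 counts in WT against 19 and 20 in G3 Terc-/- libraries; Piwil4 was named after its values were seen. The number of higher genes was 2 without WT replicate 1, 4 without WT replicate 2 and 7 without either G3 Terc-/- library, and that of lower genes was 5 without WT replicate 2.

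Of 24 genes linked with DNA demethylation or activation of LINE1, 9 were higher and 9 lower by adjusted p-value under 0.05, beside 21.7% and 21.8% of all genes, with a median log2 fold change of -0.04. Nanog, a pluripotency factor, had 8963 and 9039 counts in WT compared with 19711 and 16426 in G3 Terc-/- libraries (log2 fold change 1.13, adjusted p = 4.74e-23 from edgeR). Tcl1, a cofactor of the kinase AKT, rose by 1.15 on the log2 scale. Zscan4d, Zscan4c and Zscan4f, telomere-regulating genes expressed in rare ESCs, rose by 3.70, 3.03 and 2.87, and since they are near-identical paralogs the counts of each are uncertain. Zscan4d had 18 and 22 counts in WT against 243 and 234 in G3 Terc-/- libraries. Dppa3, which protects against maintenance DNA methylation in ESCs, fell by 1.22, and the histone demethylases Kdm3a and Kdm4c fell by 0.59 and 0.56. Sox11 fell by 0.36 and the DNA glycosylase Tdg by 0.35. Nanog, Dppa3 and Kdm3a lie on chromosome 6, and no relation between these genes and the LINE1 copies was tested. The DNA copy number of Nanog, Dppa3, Kdm3a and Zc3hav1 was not tested either.

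Feeder fibroblast markers had different levels in the replicates of a genotype, higher in replicate 1 of both. They summed to 511 and 337 CPM in WT and to 546 and 380 CPM in G3 Terc-/- libraries. By adjusted p-value under 0.05, which 21.7% of all genes passed as higher and 21.8% as lower, 7 of 20 feeder markers tested were higher and 1 was lower. Of 14 primitive endoderm markers 1 was higher and 6 lower, and of 10 trophoblast markers 1 was higher and 8 lower. The part of these cell types in the LINE1 counts was not tested.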

How the data were processed

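RNA-seq of WT and G3 Terc-/- ESCs was analysed, 2 libraries of each. The authors trimmed reads with Trim Galore, used STAR for alignment to mm10 and deposited tables of raw read counts, 1 for genes and 1 for TE copies, without normalization; featureCounts is listed in the submitters' processing notes, and the repeat annotation and strand setting are not given in the sources used here. For single copies the study describes using reads that map uniquely, which leaves out reads shared by identical copies, and without strand a LINE1 transcript and a host transcript through a copy cannot be told apart.

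From the deposited counts, copies were summed by repeat name, and names (917), copies with at least 5 counts (176114) and genes (14896 of 24116) were tested over all features with edgeR 4.0.16 in R 4.3.3 (TMM, quasi-likelihood, genotype only), with filterByExpr for names and genes and Benjamini-Hochberg adjustment. Standard errors were computed from the log2 fold change and the F statistic. Gene identifiers were matched to RefSeq symbols of GRCm38.p6 for 24061 genes. Counting intervals and the limit of 3 counts for a count of 0 cover counting error only. Names, copies and genes were named by rule: the leading copies, the 10 higher and 5 lower copies with the smallest p, up to 10 by adjusted p, and up to 5 genes per list and direction. The members and lists were chosen with earlier results of these data known. Alternatives used DESeq2 1.42.0, other scalings, filters and copies, a replicate block and each library left out.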

Additional observations from a re-analysis of the deposited data

How the results depend on the processing

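Each of the 4 names kept its direction under every alternative run, and L1Md_Gf stayed past the fold change of 1.5. The log2 fold changes scaled by gene counts were 0.30 for L1Md_F, 0.53 for L1Md_F2, 0.49 for L1Md_F3 and 1.28 for L1Md_Gf, where the median of all names moved from -0.00461 to 0.0642. L1Md_F passed the cutoff without its 10 copies with the most counts (1.18) and, in an alternative chosen after seeing the data, with copies under 50 counts only (1.12). Differences between names moved with the leading copies. When each name was summed without its leading copy they were -0.13 for L1Md_F and -0.15 for L1Md_F2 and -0.22 for L1Md_F3 against L1Md_A, the last 2 then past the threshold, and 0.0224 for L1Md_F against L1Md_F2, a reversed sign. Without the 10 copies, also chosen after seeing the data, they were -0.0053 for L1Md_F against L1Md_T, 0.53, -0.21 and -0.20 for L1Md_F, L1Md_F2 and L1Md_F3 against L1Md_A, and 0.74 for L1Md_F against L1Md_F2. With a library left out, L1Md_F3 against L1Md_A ranged from -0.17, past the threshold without WT replicate 2, to -0.0112.

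Copies called higher and lower numbered 104 and 16 by DESeq2 and 49 and 4 by adjusted p-value together with the 2-fold change. They ranged from 92 to 176 and from 19 to 41 with a library left out. Of the 241 copies called higher, 104 were shared with DESeq2. With a fold change of 2, the gene lists had 0 higher and 2 lower (silencing), 1 and 1 (restriction) and 5 and 1 (activation), and with a library left out the restriction list had 2 to 7 higher and 5 to 10 lower. The difference in the share of the 4 names was 0.0348 points with the larger gene counts as denominator (from 0.0733% to 0.108%, smaller by construction), 0.296 without the leading copies and 0.338 without TE copies over 10000 counts. The cause of the other shifts was not tested, beyond the copies and libraries left out.

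The correlation of replicate deviations between genotypes was 0.114 over genes, -0.0745 over names and 0.122 over the copies of the 4 names with 50 counts or more. Nothing in the labels pairs the numbers, but feeder marker levels were higher in replicate 1 of both genotypes. With the replicate number as a block, the log2 fold changes were 0.23 for L1Md_F, 0.46 for L1Md_F2, 0.41 for L1Md_F3 and 1.22 for L1Md_Gf, and 171 copies were called higher and 29 lower. Depth limits single copies, most of which had under 20 counts.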

Other observations

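Some copies called higher stood next to each other in the running numbers of the count table, whose meaning is not given in the sources used here. Of the 241 copies of the 4 names called higher, 106 had a tested copy with an adjoining number and 43 had an adjoining copy that was also called higher, as with L1Md_F2 copies 19840 and 19841 or 25304 and 25305. Of the other 1600 tested copies, 606 had a tested copy with an adjoining number and 75 had an adjoining copy called higher. The same counts were not made over all TE copies, so whether they are usual for any repeat name is not known. The difference between these groups, and what copies with adjoining numbers share, was not tested.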
